A study of Mus musculus with 12 samples.

Results

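The comparison described here is that of S1PR1 knockout macrophages from PyMT breast tumours with S1PR1 knockout macrophages from MCA fibrosarcomas. It rests on the 4 arrays labelled as S1PR1 knockout in these tumours, of 12 arrays in the series, and covers 12410 autosomal genes of 14103 genes tested. KO_PyMT had 2 arrays of S1PR1 knockout macrophages from PyMT breast tumours of female mice. KO_MCA had 2 arrays of S1PR1 knockout macrophages from MCA fibrosarcomas of male mice. WT_PyMT and WT_MCA, with 2 arrays each from wild-type mice, entered the fit through the estimate of the spread and a check of each difference. They also counted in the detection filter, the choice of probe and the normalization. All mice were labelled C57BL/6, the cells were pooled and sorted by flow cytometry for high CD11b, and the labels give neither the deletion strategy nor the ages. Whether the 2 replicates of a group came from different mice or from different pools is not stated in the labels. The p-values therefore cover the spread among these arrays alone, and that spread may be technical.

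S1PR1 is a G protein-coupled receptor for sphingosine-1-phosphate, a lipid that cells release into blood, lymph and inflamed tissue and that guides the movement of immune cells. Tumour-associated macrophages take up dead cells and lipid, remodel matrix with secreted proteases, present antigen and release cytokines, and their gene programme differs with the tumour they live in. The comparison asks how knockout macrophages of a mammary carcinoma differ from knockout macrophages of a fibrosarcoma when both lack the receptor.

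Tumour type went together with sex and with BeadChip in this design, since every KO_PyMT and WT_PyMT array was on 1 BeadChip and every KO_MCA and WT_MCA array on the other. Tumour and sex cannot be told apart. For the BeadChip there was 1 bridge, a repeat of the KO_MCA replicate 1 sample on the PyMT BeadChip, called the repeat array below. The S1pr1 gene itself had 1 probe, which was above background on 0 of 12 arrays, with a lowest deposited detection p of 0.633 among the knockout and repeat arrays, so the genotype could not be checked. Genes above background numbered 10247 and 9894 of 14103 on the KO_PyMT arrays, against 11648 and 11382 on the KO_MCA arrays and 10871 on the repeat array. All levels are neqc log2 intensities, which start near 4 at background, and a difference of 1 is 2-fold.

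The KO_PyMT replicates stood further from each other than from the KO_MCA arrays. Across the 12410 genes, the SD of the log2 difference was 0.761 between the KO_PyMT replicates, against 0.372 between the KO_MCA replicates and 0.281 between the repeat array and KO_MCA replicate 1, which are the same sample on different BeadChips. The 4 pairings of a KO_PyMT with a KO_MCA array gave 0.678 to 0.696. Over 2-fold differences were seen for 1933 genes between the KO_PyMT replicates, against 215 between the KO_MCA replicates and 32 between the repeat array and its original. Of those 1933, replicate 1 was the higher in 964 and replicate 2 in 969.

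**Figure D1:**
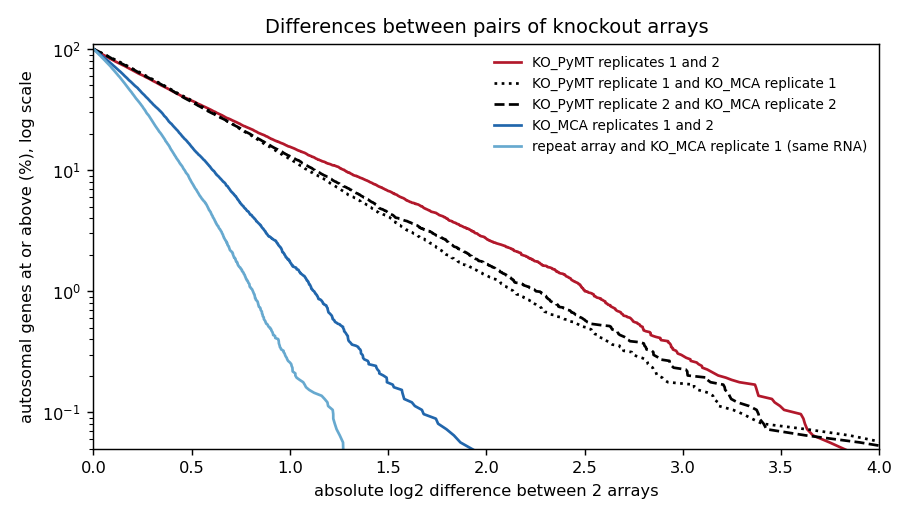
Share of the 12410 autosomal genes (y axis, log scale, percent) whose absolute log2 difference between 2 knockout arrays is at least the value on the x axis; each line is 1 pair of arrays. The line of the KO_PyMT replicates (SD 0.761) lies above the lines of PyMT against MCA arrays between about 1 and 3.5, and the repeat array lies closest to its original (SD 0.281).

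Few genes passed the test between the tumours, and all of them were higher in KO_PyMT. The test used a spread pooled over the 4 groups, the WT arrays included, and not that of the KO_PyMT replicates alone. At an adjusted p under 0.05 (limma, Benjamini-Hochberg over 14103 genes), 8 autosomal genes rose in KO_PyMT, 0.0645% of those tested, and 0 fell, which is 0%. They were H2-M2, Olfr111, Retnla, Adamtsl5, Sema4b, Mmp12, R3hcc1l and Wdr83. At an unadjusted p under 0.05, 746 genes (6.01%) were higher and 957 (7.71%) lower. Of the lower genes the smallest adjusted p was 0.0593, and 32 lower and 40 higher genes had an adjusted p under 0.1. The authors' own normalized values gave 12 higher and 4 lower genes, normexp with an offset of 50 gave 15 higher and 4 lower, no background correction gave 13 higher and 3 lower, and median scaling gave 5 higher and 1 lower. Leaving out KO_MCA replicate 1 or 2, or fitting the 4 KO arrays alone, gave 0 called genes, leaving out KO_PyMT replicate 1 gave 125 and replicate 2 gave 59, and leaving out any 1 WT array gave 4. With the BeadChip as a block, H2-M2 alone was called.

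The starts of 3 of these genes are shown because they belong to a macrophage protease, to a secreted marker of alternative activation and to the gene with the largest difference. Each stretch is the 250 bases before the annotated start in the RefSeq promoter table of GRCm38.p6, 5′ to 3′ on the gene's strand. Capitals mark matches on either strand to GAGGAA, the core bound by the macrophage factor PU.1, and to TTCNNNNGAA, the spacing bound by STAT6; AP-1 sites, TGANTCA, were also searched and were not found in these windows.
H2-M2 (chr17:37483555-37483804, minus strand): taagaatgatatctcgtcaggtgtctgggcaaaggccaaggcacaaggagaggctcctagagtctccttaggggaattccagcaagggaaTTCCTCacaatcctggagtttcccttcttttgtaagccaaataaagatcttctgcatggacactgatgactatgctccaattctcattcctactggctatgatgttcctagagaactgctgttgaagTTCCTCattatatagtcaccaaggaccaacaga
Retnla (chr16:48842359-48842608, plus strand): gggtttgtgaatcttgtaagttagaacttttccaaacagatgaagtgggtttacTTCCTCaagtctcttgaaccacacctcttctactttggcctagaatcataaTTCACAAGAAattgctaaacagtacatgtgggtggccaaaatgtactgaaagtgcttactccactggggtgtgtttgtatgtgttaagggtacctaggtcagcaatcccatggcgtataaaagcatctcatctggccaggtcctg
Mmp12 (chr9:7344147-7344396, plus strand): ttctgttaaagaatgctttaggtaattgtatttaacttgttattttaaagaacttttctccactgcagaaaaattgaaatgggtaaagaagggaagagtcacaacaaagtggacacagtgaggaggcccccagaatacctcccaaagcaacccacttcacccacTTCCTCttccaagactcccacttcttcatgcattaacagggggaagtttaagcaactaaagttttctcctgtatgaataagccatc
The H2-M2 stretch holds 2 matches to GAGGAA, and the Retnla and Mmp12 stretches hold 1 each. The Retnla stretch alone of the 3 holds TTCNNNNGAA, and no 2 matches overlap. GAGGAA occurs in 23.3% of 32851 promoter stretches of this length, TTCNNNNGAA in 5.85% and TGANTCA in 6.75%, and a match is only a match of letters.

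H2-M2, a non-classical MHC class I gene of the M region on chromosome 17 (37480851 to 37483554, GRCm38.p6), showed the widest gap. Its log2 intensity was 10.57 and 10.17 on the KO_PyMT arrays, against 4.74 and 4.56 on the KO_MCA arrays and 4.84 on the repeat array. Both KO_PyMT arrays lay far above all 3 arrays of knockout MCA macrophages. The difference of 5.72 ± 0.32 (SE, n = 2 arrays each) is 52.7-fold, with an adjusted p of 0.00453 by limma. The size depends on the background correction: the log2 difference of H2-M2 was 4.33 with normexp and 3.86 both without correction and with the authors' values, and it was called in each.

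Olfr111, an olfactory receptor gene with 42198 bases between it and H2-M2 (chromosome 17, 37525753 to 37537652), followed the same pattern. It measured 9.37 and 8.67 on the KO_PyMT arrays, against 4.31 and 4.21 on the KO_MCA arrays and 4.38 on the repeat array. Of the KO_MCA arrays 1 was above background, at a level near the floor. The difference was 4.76 ± 0.39 (SE) on the neqc scale, with an adjusted p of 0.0216 by limma. For Olfr111 it was 3.20 with normexp, and 2.72 without correction and 2.73 with the authors' values, where it was not called (adjusted p = 0.0503 and 0.0504, limma). Between them lies Olfr110, a further olfactory receptor gene, which was read at 5.83 and 6.25 on the KO_PyMT arrays and was below background on both KO_MCA arrays. Olfr110 was at least 3.52-fold higher in KO_PyMT on the neqc scale, with an adjusted p of 0.111 by limma. It is named here after its values were seen. The other 15 tested genes that start within 0.5 Mb of H2-M2, namely the MHC class I gene H2-M3, the ubiquitin-like gene Ubd and further Olfr genes, differed by between -0.36 and 0.41. For such windows, here and below, a start is the gene's lowest coordinate, whatever its strand. Olfr genes are members of a large family of similar sequences, and the probes' cross-hybridisation was not tested.

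**Figure D2:**
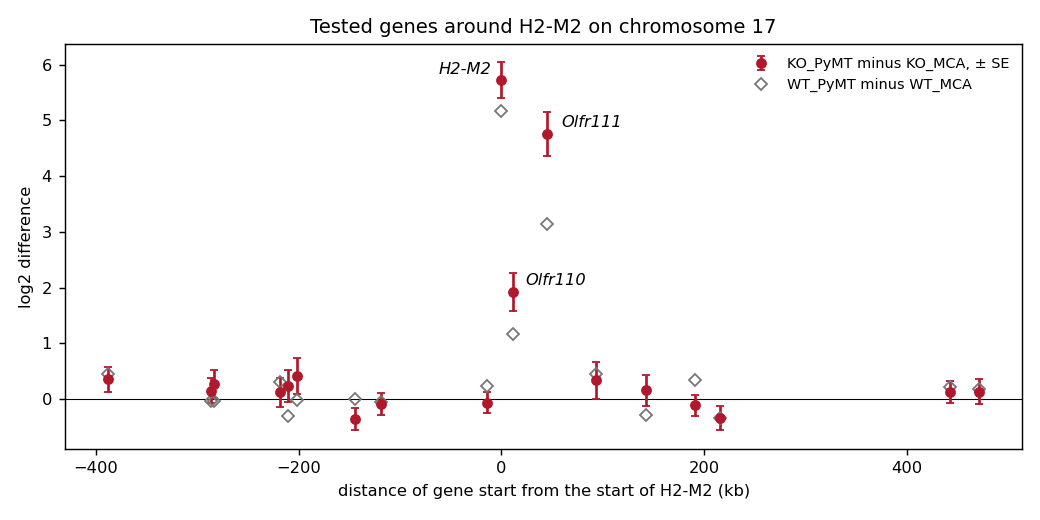
Log2 difference (y axis) of the 18 tested genes that start within 0.5 Mb of H2-M2, against the distance of each start from that of H2-M2 (x axis, kb). A start is the gene's lowest coordinate, whatever its strand. Filled points are KO_PyMT minus KO_MCA with their SE, open diamonds WT_PyMT minus WT_MCA; H2-M2, Olfr110 and Olfr111 stand above the other 15 genes in both genotypes.

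Retnla, which encodes the secreted protein RELM-alpha that macrophages make in response to interleukin-4 (chromosome 16, 48842609 to 48844461), was detected only in the PyMT setting among the knockout arrays. It measured 8.05 and 8.73 on the KO_PyMT arrays, against 4.20 and 4.12 on the KO_MCA arrays and 4.33 on the repeat array. All 3 MCA values were below background, so Retnla was at least 18.0-fold higher in KO_PyMT on the neqc scale (adjusted p = 0.0216, limma). Its log2 difference was 4.23 with neqc, 2.70 with normexp, 2.23 without correction and 2.24 with the authors' values, so the bound holds for neqc only. Mmp12, the macrophage metalloelastase (chromosome 9, 7344397 to 7360461), measured 8.85 and 9.24 on the KO_PyMT arrays, against 6.32 and 6.36 on the KO_MCA arrays and 6.25 on the repeat array. It was above background on every one of these arrays, and its difference was 2.71 ± 0.27 (SE), or 6.53-fold, with an adjusted p of 0.0391 by limma. For Mmp12 the lowest of these other settings gave 1.97.

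Sema4b, a membrane-bound semaphorin (chromosome 7, 80186870 to 80226646), measured 9.77 and 9.61 on the KO_PyMT arrays, against 6.92 and 6.91 on the KO_MCA arrays and 7.03 on the repeat array. The difference was 2.77 ± 0.25 (SE; adjusted p = 0.0289, limma) on its brightest probe and 0.46 on its other detected probe, so the size depends on the probe. Adamtsl5, a secreted matrix protein of the ADAMTS-like family (chromosome 10, 80339793 to 80349030), measured 7.24 and 7.06 on the KO_PyMT arrays, against 4.32 and 4.20 on the KO_MCA arrays, of which 1 was above background, and 4.18, below background, on the repeat array. Its difference was 2.89 ± 0.26 (SE; adjusted p = 0.0289, limma) against that floor, and 1.25 without background correction and 1.26 with the authors' values.

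The last 2 called genes had the smallest differences and the smallest SEs of the 8. R3hcc1l, which encodes a protein with an R3H domain (chromosome 19, 42517980 to 42592274), measured 6.81 and 6.57 on the KO_PyMT arrays, against 4.86 and 4.82 on the KO_MCA arrays and 5.14 on the repeat array, a difference of 1.85 ± 0.18 (SE; adjusted p = 0.0391, limma). Wdr83, a WD-repeat scaffold of MAP kinase signalling (chromosome 8, 85075035 to 85080746), measured 7.52 and 7.43 on the KO_PyMT arrays, against 5.67 and 5.71 on the KO_MCA arrays and 5.66 on the repeat array. Its difference was 1.78 ± 0.19 (SE; adjusted p = 0.048, limma), and 0.96 on its other detected probe. For all 8 genes the KO_PyMT arrays lay above the KO_MCA arrays without overlap, a pattern that 45.6% of autosomal genes show in either direction. With the authors' values the log2 difference was 0.79 for R3hcc1l, 1.01 for Wdr83 and 2.22 for Sema4b, and all 3 were called there.

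**Figure D3:**
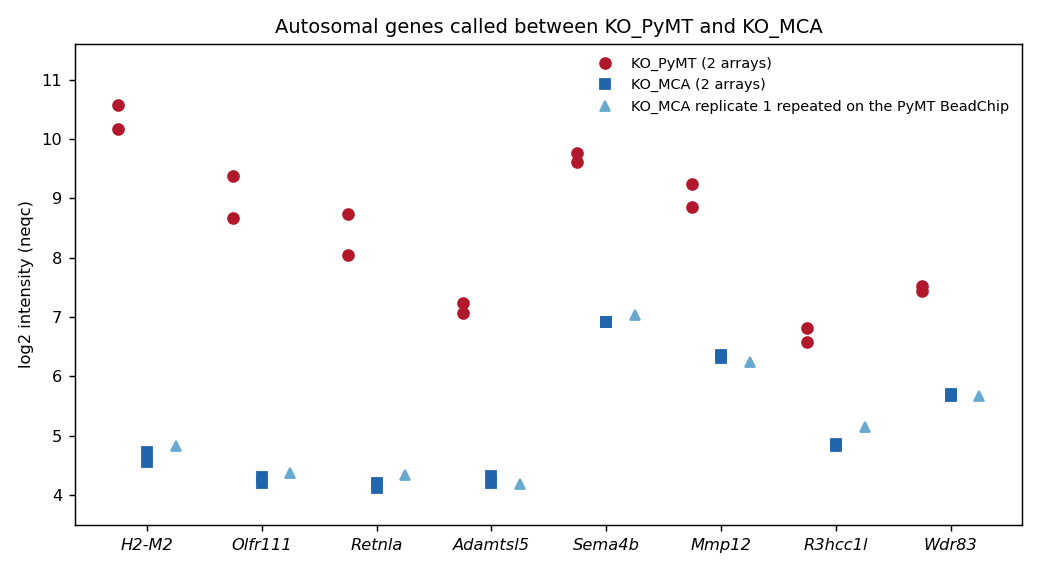
Log2 intensity (y axis) of the 8 genes called between KO_PyMT and KO_MCA; circles are the 2 KO_PyMT arrays, squares the 2 KO_MCA arrays and the triangle is KO_MCA replicate 1 measured again on the PyMT BeadChip. The repeat array lies beside the KO_MCA arrays in every gene, the widest gap being that of R3hcc1l (5.14 against 4.86 and 4.82).

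A further 4 higher genes came next by p and did not pass. Il7r, the interleukin-7 receptor alpha chain, measured 7.82 and 7.11 on the KO_PyMT arrays, against 5.32 and 4.70 on the KO_MCA arrays (adjusted p = 0.0639, limma), and its 5 detected probes differed by 1.20 to 2.45. Igfbp5, a secreted binding protein of insulin-like growth factors, measured 7.27 and 6.24 on the KO_PyMT arrays and was below background on both KO_MCA arrays, a difference of at least 5.78-fold (adjusted p = 0.0639, limma). Phlda3, a p53 target that restrains AKT, measured 6.32 and 5.95 on the KO_PyMT arrays and was below background on both KO_MCA arrays, a difference of at least 3.69-fold (adjusted p = 0.0593, limma). Wfdc18, of the whey acidic protein family, measured 6.85 and 6.32 on the KO_PyMT arrays and was also below background on both KO_MCA arrays, a difference of at least 5.14-fold (adjusted p = 0.0636, limma). These bounds hold for neqc only. Without background correction the log2 differences were 1.11 for Igfbp5, 0.66 for Phlda3 and 0.93 for Wfdc18.

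The 12 lower genes with the smallest p did not pass the test and had adjusted p-values of 0.0593 to 0.0771 by limma. The 2 with the widest gaps are neighbours on chromosome 3. Bdh2, a cytosolic hydroxybutyrate dehydrogenase (135281221 to 135304426), measured 4.36 and 4.18 on the KO_PyMT arrays, both below background, against 7.67 and 7.12 on the KO_MCA arrays and 7.78 on the repeat array. Slc9b2, a sodium-proton antiporter gene (135307651 to 135342845) with 3224 bases between it and Bdh2, measured 4.18 and 4.08 on the KO_PyMT arrays, again below background, against 7.33 and 7.10 on the KO_MCA arrays and 7.80 on the repeat array. The differences were at least 8.26-fold for Bdh2 and at least 7.44-fold for Slc9b2, lower in KO_PyMT. Both bounds hold for neqc only, and the log2 difference of Bdh2 was -1.42 without background correction. The other 4 tested genes that start within 0.5 Mb of Bdh2, including Nfkb1 and Manba, differed by between -0.04 and 0.68.

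Abcb4, the phosphatidylcholine transporter first described in bile secretion, measured 4.14 and 4.12 on the KO_PyMT arrays, both below background, against 6.77 and 6.30 on the KO_MCA arrays. Fto, an RNA demethylase, was below background at 4.35 and 4.27 on the KO_PyMT arrays, against 6.42 and 6.55 on the KO_MCA arrays, and a second probe differed by only -0.24. Siva1, a pro-apoptotic adaptor, measured 6.51 and 6.78 on the KO_PyMT arrays, against 8.18 and 8.0 on the KO_MCA arrays. The interferon-induced exonuclease Isg20 was below background at 4.37 and 4.16 on the KO_PyMT arrays, against 6.29 and 5.66 on the KO_MCA arrays. Rufy4, linked to autophagy, was below background on both KO_PyMT arrays and at least 2.76-fold lower there on the neqc scale. Its log2 difference was -0.48 without background correction. The lysosome-related organelle subunit Bloc1s1, the pseudogene Mif-ps and the gene D8Ertd738e, above background on all 4 knockout arrays, differed by -1.69 to -1.49. The pseudogene BC085271 measured 4.70 and 4.39 on the KO_PyMT arrays, 1 of them above background, against 6.05 and 6.2 on the KO_MCA arrays. The Mif-ps probe may also read transcripts of Mif, which was not tested.

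Cep72, a centrosomal protein gene, is the lower gene for which the repeat array went against its original. It measured 4.07 and 4.10 on the KO_PyMT arrays, both below background, against 5.46 and 5.26 on the KO_MCA arrays, yet 4.24 and below background on the repeat array of KO_MCA replicate 1. Across autosomal genes the repeat array differed from its original by a median of 0.0041, and 32 genes (0.258%) differed by more than 1. Of the 1703 genes with an unadjusted p under 0.05, 1687 (99.1%) kept their sign when the KO_PyMT mean was set against the repeat array on the same BeadChip, against 10008 of 12410 (80.6%) of all autosomal genes. For 207 of the 1703 (12.2%) the BeadChip difference was at least 50% of the tumour difference and of the same sign. Of all autosomal genes, 4003 of 12410 (32.3%) met that criterion. The 1703 were picked by a p that uses the original array, so their lower share does not measure the BeadChip part. The repeat array is the RNA of KO_MCA replicate 1 set against the same KO_PyMT arrays, so a kept sign is no independent support.

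A stricter description required each KO_PyMT array to lie at least 2-fold from each KO_MCA array. On that count 98 genes (0.79%) were above and 134 (1.08%) below, more of them below. Of the 98, 74 (75.5%) were also at least 2-fold above the repeat array, and of the 134, 105 (78.4%) were also at least 2-fold below it. This count carries no test.

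The same tumour difference was read in wild-type macrophages, on arrays that the knockout difference does not use, though these arrays share the BeadChips and the sexes. The WT arrays also entered the spread behind the knockout p-values, the detection filter, the choice of probe and the normalization. The 1703 genes below were therefore not picked independently of them. WT_PyMT against WT_MCA gave 1 called gene, H2-M2, which is 0.00806% of autosomal genes, and 992 genes at an unadjusted p under 0.05. Of the 1703 genes at an unadjusted p under 0.05 in the knockout, 1260 (74.0%) had the same sign in WT, against 61.3% of all autosomal genes. Across the 12410 genes the 2 differences correlated with Pearson's r of 0.347 and Spearman's rho of 0.306, a description across genes, which are not independent replicates. H2-M2 measured 9.74 and 9.76 on the WT_PyMT arrays, against 4.12 and 5.04 on the WT_MCA arrays. Mmp12 measured 8.87 and 8.23 on the WT_PyMT arrays, against 6.22 and 6.48 on the WT_MCA arrays. Retnla was weaker there, at 5.71 and 6.57 on the WT_PyMT arrays, and below background on both WT_MCA arrays.

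The test of whether the tumour difference itself differed between knockout and wild type called 0 genes, 0% of those tested (limma). The smallest adjusted p was 0.532, and 710 genes lay at an unadjusted p under 0.05. No gene can therefore be called particular to the knockout, and a p that misses the threshold does not show equal differences. The 6 genes with the smallest p were R3hcc1l, Phlda3, Josd1, Adamtsl5, Cnot10 and Bet1l. R3hcc1l, called above, was 4.55 and 4.52 on the WT_PyMT arrays, against 4.94 and 5.12 on the WT_MCA arrays, so its knockout difference exceeded its WT difference by 2.35 ± 0.26 (SE). Adamtsl5 was 4.95 and 4.33 on the WT_PyMT arrays, against 4.13 and 4.50 on the WT_MCA arrays, an excess of 2.57 ± 0.37 (SE) in the knockout. Of its WT_MCA arrays, as of its KO_MCA arrays, 1 was above background. Bet1l, a Golgi SNARE gene, had the widest contrast. It measured 4.36 and 4.29 on the KO_PyMT arrays, 1 of them above background, against 6.49 and 6.96 on the KO_MCA arrays, while it measured 8.38 and 7.24 on the WT_PyMT arrays, against 6.72 and 6.54 on the WT_MCA arrays. Josd1, a deubiquitinase gene, had a knockout difference of 0.90 and a WT difference of -1.01. For Cnot10, a subunit of the CCR4-NOT deadenylase, the knockout difference was -1.28 and the WT difference 0.60.

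**Figure D4:**
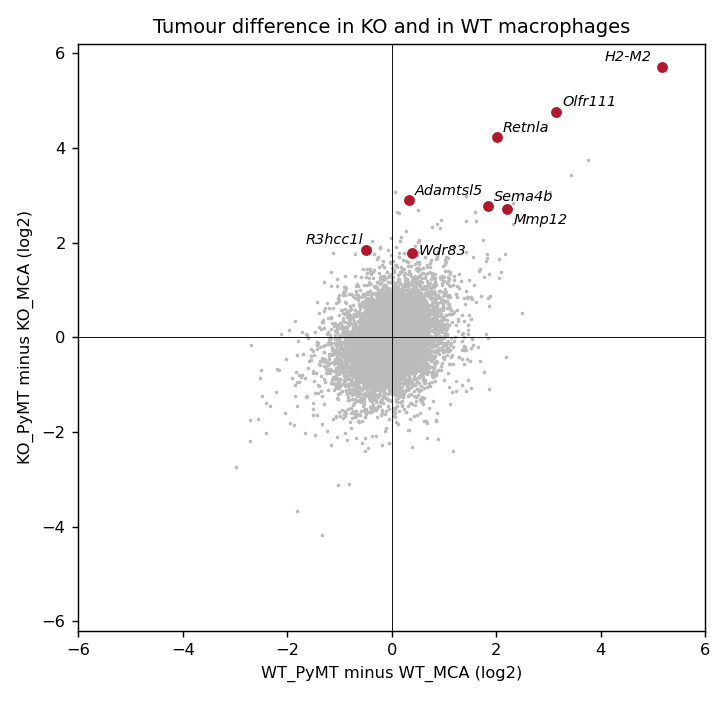
Log2 tumour difference in KO (y axis, KO_PyMT minus KO_MCA) against that in WT (x axis, WT_PyMT minus WT_MCA) for each of 12410 autosomal genes; red points are the 8 called genes. Of these, 7 lie right of 0 on the WT axis and R3hcc1l lies left of it at -0.49; Pearson's r across genes is 0.347.

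Gene lists are given by the count of measured members above and below 0 and by their median, beside a median of -0.0040 over all autosomal genes, of which 746 were higher and 957 lower at an unadjusted p under 0.05. In bulk RNA of sorted cells, fewer cells of a type and less RNA per cell cannot be told apart. Median scaling in place of quantile normalization moved the median of all genes to -0.12. Besides Retnla and Mmp12, no member of the lists below passed the test, so the differences of the others are values and not calls.

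Macrophage identity genes were detected throughout and leaned lower. All 15 measured members were above background on all 4 knockout arrays, 12 of 15 were lower in KO_PyMT and the median was -0.39, with a WT median of -0.40. Their summed linear intensity was 5365 and 6045 on the KO_PyMT arrays, against 7291 and 7083 on the KO_MCA arrays. Siglec1, the sialic acid receptor of CD169+ macrophages, measured 6.61 and 5.92 on the KO_PyMT arrays, against 7.98 and 8.16 on the KO_MCA arrays. Spi1, which encodes PU.1, measured 6.87 and 7.43 on the KO_PyMT arrays, against 7.90 and 8.17 on the KO_MCA arrays. Itgam, the CD11b chain used for the sort, measured 7.04 and 6.39 on the KO_PyMT arrays, against 7.78 and 7.74 on the KO_MCA arrays, and the dendritic cell and macrophage integrin Itgax went the other way, at 7.63 and 7.75 on the KO_PyMT arrays, against 6.10 and 6.11 on the KO_MCA arrays. The 2 groups did not overlap in these 4 genes, which were named for their small p, and do not overlap in 45.6% of autosomal genes. Of 12 measured genes of tissue-resident macrophages, 10 were higher in KO_PyMT (median 0.24), while the WT median was -0.24, and the KO_MCA replicates themselves differed by a median of -0.98 in this list, and its median ranged from -0.13 to 0.76 over the alternatives. Cd163, the haemoglobin scavenger receptor, read 6.44 and 8.19 on the KO_PyMT arrays, against 4.89 and 6.41 on the KO_MCA arrays.

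The alternative activation list had 11 of 18 measured members higher in KO_PyMT, 6 higher and 1 lower at an unadjusted p under 0.05, and a median of 0.55 (WT median 0.38). Among members above background on all 4 knockout arrays the median was 0.00. Retnla was its 1 called gene. Irf4, a transcription factor of interleukin-4-stimulated macrophages, measured 6.08 and 5.44 on the KO_PyMT arrays, against 4.56 and 4.16 on the KO_MCA arrays. Egr2 measured 9.37 and 9.19 on the KO_PyMT arrays, against 8.42 and 8.53 on the KO_MCA arrays, and the eotaxin gene Ccl24 measured 5.25 and 5.76 on the KO_PyMT arrays, against 4.13 and 4.36 on the KO_MCA arrays. The classic markers of the same state did not share this: Arg1, Chil3 and Mrc1 differed by -0.18, -0.53 and -0.19, each within its error.

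Cytokine genes of classical activation also leaned higher. Of 13 measured members, 10 were higher in KO_PyMT, 3 of them at an unadjusted p under 0.05, with a median of 0.14 that turned to -0.04 under median scaling and a WT median of 0.11. Tnf measured 8.92 and 8.37 on the KO_PyMT arrays, against 7.30 and 7.38 on the KO_MCA arrays. Il6 measured 6.29 and 5.81 on the KO_PyMT arrays, against 5.06 and 4.34 on the KO_MCA arrays. Il1a, of the interleukin-1 family, came closest to the threshold, at 10.22 and 10.51 on the KO_PyMT arrays, against 8.79 and 8.86 on the KO_MCA arrays, a difference of 1.54 ± 0.20 (SE; adjusted p = 0.0639, limma). The interleukin-1 receptor antagonist Il1rn was higher as well (0.99 ± 0.27), whereas the ATP-gated channel P2rx7 was lower (-1.0 ± 0.35). As a whole the list of inflammasome and interleukin-1 genes had 7 higher and 9 lower members and a median of -0.05 (WT median -0.02).

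CC chemokines leaned higher and CXC chemokines did not. Of 12 measured CC chemokine genes 8 were higher in KO_PyMT, 5 of them at an unadjusted p under 0.05, and the median was 0.54, with a WT median of 0.40. Ccl3, a chemoattractant of monocytes and T cells, measured 9.67 and 9.62 on the KO_PyMT arrays, against 8.35 and 8.42 on the KO_MCA arrays, a difference of 1.27 ± 0.19 (SE; adjusted p = 0.0771, limma). Ccl6 differed by 1.12 ± 0.33 and Ccl4 by 0.51 ± 0.20. Of 10 CXC genes 6 were lower (median -0.31, WT median -0.17). Against the repeat array on the PyMT BeadChip the median was -0.04 for CXC genes and 0.41 for CC genes. The interferon-gamma-induced Cxcl9 measured 5.65 and 6.91 on the KO_PyMT arrays, against 9.05 and 7.43 on the KO_MCA arrays, with wide gaps between replicates on both sides. Of 9 measured chemokine receptors 7 were lower, with a median of -0.11 (WT median -0.04).

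Interferon and MHC class I genes leaned lower. Of 28 measured interferon-stimulated genes, 21 were lower in KO_PyMT, 6 at an unadjusted p under 0.05 against 0 higher ones, and the median was -0.49 (WT median -0.28). Irf7, a master factor of type I interferon, measured 4.56 and 4.24 on the KO_PyMT arrays, against 5.79 and 6.22 on the KO_MCA arrays. The RNA sensors Dhx58 and Ddx58 differed by -0.80 ± 0.30 and -0.94 ± 0.36. Of 15 MHC class I presentation genes 11 were lower, with a median of -0.40 and a WT median of -0.09. The median of this list was -0.23 against the repeat array. B2m, the light chain of class I molecules, differed by -0.41 ± 0.16, but the repeat array read 10.36 beside 10.30 and 10.30 on the KO_PyMT arrays, against 10.72 on its KO_MCA original, and the difference on that 1 BeadChip was -0.07. MHC class II genes split evenly, 6 higher and 6 lower, with a median of 0.00 in the knockout and 0.62 in WT.

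Oxidative phosphorylation, the nuclear genes of the mitochondrial respiratory chain, leaned lower. Of 36 measured members, 34 were lower in KO_PyMT, 17 at an unadjusted p under 0.05 against 0 higher ones, and the median was -0.55. The medians were -0.59 and -0.50 for KO_PyMT replicates 1 and 2 taken singly, and the median against the repeat array was -0.50. In WT the median was -0.27. Ndufa9, of complex I, measured 5.46 and 6.14 on the KO_PyMT arrays, against 7.44 and 6.91 on the KO_MCA arrays. Ndufb5, also of complex I, differed by -0.76 ± 0.19, and the ATP synthase subunits Atp5d and Atp5o by -0.70 ± 0.18 and -0.74 ± 0.21.

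Fatty acid oxidation had 14 of 16 members lower, with a median of -0.47 in the knockout and 0.01 in WT. Etfa, an electron carrier of beta-oxidation, measured 8.37 and 8.13 on the KO_PyMT arrays, against 9.17 and 9.06 on the KO_MCA arrays. Its partner Etfb differed by -0.77 ± 0.29, and Ppargc1b, a coactivator of mitochondrial genes, by -0.98 ± 0.25. Carnitine palmitoyltransferase 2, Cpt2, was below background on both KO_PyMT arrays and at least 1.98-fold lower there on the neqc scale. Cytosolic ribosomal proteins had 22 of 28 members lower (median -0.31, WT median -0.06), 5 lower and 2 higher at an unadjusted p under 0.05, and the higher Rpl23 turned to -0.10 when its probes were averaged. Fewer genes were above background on the KO_PyMT arrays than on the KO_MCA arrays (9894 and 10247 against 11382 and 11648), and the part of this in the lower medians was not tested.

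Glycolysis and the hypoxia response leaned the other way. Of 15 glycolysis genes 10 were higher in KO_PyMT (median 0.16, WT median -0.06), and Slc16a3, the lactate exporter MCT4, measured 6.75 and 7.24 on the KO_PyMT arrays, against 6.33 and 6.10 on the KO_MCA arrays. Of 18 hypoxia genes 14 were higher, 4 at an unadjusted p under 0.05 against 0 lower ones, with a median of 0.25 and a WT median of 0.00. Car9, a carbonic anhydrase induced by HIF-1, measured 6.08 and 6.95 on the KO_PyMT arrays, against 5.71 and 5.02 on the KO_MCA arrays and 5.81 on the repeat array. Hmox1, heme oxygenase 1, measured 8.35 and 7.33 on the KO_PyMT arrays, against 6.79 and 7.06 on the KO_MCA arrays. Angiogenic factors as a list split into 6 higher and 7 lower, with a median of -0.02 (WT median -0.09), and Thbs1, an inhibitor of angiogenesis, was lower at 8.19 and 7.83 on the KO_PyMT arrays, against 9.94 and 9.74 on the KO_MCA arrays.

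Lipid efflux and storage genes were higher in 15 of 17 cases, 4 at an unadjusted p under 0.05 against 0 lower ones, with a median of 0.28 (WT median 0.21). Cd36, a fatty acid and oxidised lipoprotein receptor, measured 6.36 and 5.90 on the KO_PyMT arrays, against 4.80 and 4.29 on the KO_MCA arrays, a difference of 1.59 ± 0.25 (SE; adjusted p = 0.0822, limma). Mylip, an LXR-induced ligase that degrades the LDL receptor, differed by 1.07 ± 0.18, the lysosomal cholesterol exporter Npc1 by 1.06 ± 0.27 and Apoe by 0.55 ± 0.18. Cholesterol synthesis leaned lower, with 10 of 14 members below 0 and a median of -0.31 (WT median -0.18). Msmo1, the methylsterol monooxygenase, measured 4.75 and 4.64 on the KO_PyMT arrays, against 5.86 and 5.19 on the KO_MCA arrays, and Pmvk of the mevalonate pathway went the other way, at 7.27 and 6.72 on the KO_PyMT arrays, against 6.22 and 5.92 on the KO_MCA arrays.

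Proteases held some of the widest differences in either direction. Mmp12 was the 1 called gene of 15 measured metalloproteinase genes and inhibitors, 10 of them higher and 5 lower, with a median of 0.12 (WT median -0.01). Mmp13, a collagenase, measured 8.72 and 8.73 on the KO_PyMT arrays, against 7.68 and 7.86 on the KO_MCA arrays, a difference of 0.95 ± 0.19. Mmp9, gelatinase B, measured 5.34 and 4.91 on the KO_PyMT arrays, against 8.39 and 9.20 on the KO_MCA arrays. Its difference of -3.67 ± 0.84 did not pass (adjusted p = 0.172, limma), and the WT_MCA arrays, which enter the spread, read 5.09 and 7.97. Ctsk, the collagen-degrading cathepsin K, was below background at 4.10 and 4.20 on the KO_PyMT arrays, against 8.55 and 8.10 on the KO_MCA arrays and 8.50 on the repeat array. It was at least 16.05-fold lower in KO_PyMT on the neqc scale (adjusted p = 0.111, limma), with 4.17 and 6.83 on the WT_MCA arrays. Gpnmb, a glycoprotein of lipid-laden and phagocytic macrophages, measured 9.46 and 8.80 on the KO_PyMT arrays, against 6.67 and 5.52 on the KO_MCA arrays.

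Lysosome and cathepsin genes, the list that holds Ctsk and Gpnmb, had 11 of 16 members higher and a median of 0.11, which turned to -0.05 under median scaling, and a WT median of 0.08. Integrin and adhesion genes had 11 of 17 members higher, 4 higher and 3 lower at an unadjusted p under 0.05, and a median of 0.31 (WT median 0.25). Scavenger and apoptotic-cell receptors, through which macrophages clear dying cells, had 11 of 14 members higher and a median of 0.25 (WT median 0.39). Fc and TREM receptors had 11 of 15 members lower with a median of -0.06 (WT median -0.35), and the inhibitory Fc receptor Fcgr2b measured 7.60 and 7.38 on the KO_PyMT arrays, against 8.33 and 8.21 on the KO_MCA arrays. Complement genes split evenly, 6 higher and 6 lower, with a median of -0.09 (WT median -0.01).

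The cell cycle list had 17 of 28 members lower, and 10 of them at an unadjusted p under 0.05 against 0 higher ones, with a median of -0.19 (WT median -0.43). Plk1, a mitotic kinase, measured 4.58 and 4.50 on the KO_PyMT arrays, against 5.56 and 5.97 on the KO_MCA arrays. Mcm6, of the replicative helicase, measured 7.29 and 7.19 on the KO_PyMT arrays, against 8.06 and 8.15 on the KO_MCA arrays. Topoisomerase Top2a measured 4.20 and 4.63 on the KO_PyMT arrays, against 5.65 and 5.66 on the KO_MCA arrays, and Cdk1 was below background on both KO_PyMT arrays.

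None of the other measured receptor and enzyme genes of sphingosine-1-phosphate passed the test, and 0 of them had an unadjusted p under 0.05. Of 5 listed S1P receptor genes 3 were measured. S1pr2 measured 8.23 and 9.05 on the KO_PyMT arrays, against 8.93 and 8.97 on the KO_MCA arrays, and was the only one above background on all 4 of them. S1pr3 and S1pr5 stayed near background in both tumours, with differences of 0.06 ± 0.24 and -0.11 ± 0.26. Of 9 measured genes of S1P metabolism and transport 4 were higher and 5 lower, with a median of -0.01 (WT median -0.18). Sgpp1, an S1P phosphatase, measured 8.11 and 7.27 on the KO_PyMT arrays, against 8.44 and 8.37 on the KO_MCA arrays, and the kinase Sphk1 measured 4.50 and 5.79 on the KO_PyMT arrays, against 4.49 and 4.35 on the KO_MCA arrays. Neither passed the test (adjusted p = 0.372 and 0.524, limma).

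**Figure D5:**
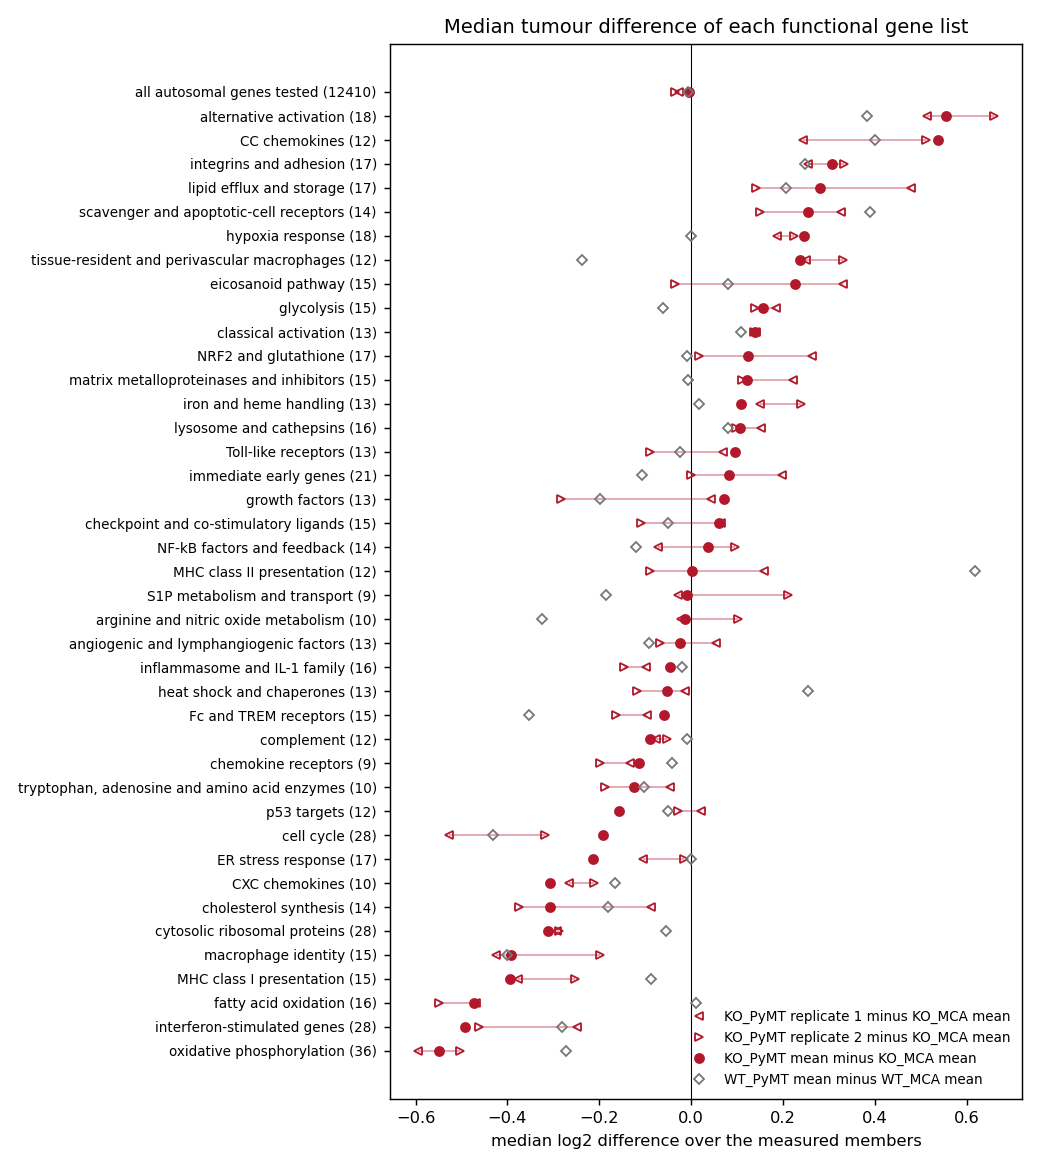
Median log2 tumour difference (x axis) over the measured members of each functional list with 9 or more measured genes, with the number measured in brackets. Filled circles are KO_PyMT minus KO_MCA, open triangles each KO_PyMT replicate minus the KO_MCA mean and open diamonds WT_PyMT minus WT_MCA; oxidative phosphorylation lies at -0.55 and alternative activation at 0.55.

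No marker of another cell type passed the test. All 15 measured epithelial and mammary markers were higher in KO_PyMT, with a median of 0.38 (WT median 0.22), 3 of them at an unadjusted p under 0.05, and their summed linear intensity was 2133 and 1334 on the KO_PyMT arrays, against 1169 and 1212 on the KO_MCA arrays. Of the 25 listed, 8 were above background on both KO_PyMT arrays and 5 on both KO_MCA arrays. Of the 15 measured, 8 were above background on neither KO_MCA array and 3 on neither KO_PyMT array. A gene was kept if detected on at least 2 of 8 group arrays, so detection in PyMT alone could admit it. The shared sign is therefore no test of these markers. Csn3, kappa-casein, measured 5.28 and 5.95 on the KO_PyMT arrays and was below background on both KO_MCA arrays. T and NK cell markers, 11 higher and 3 lower (median 0.21, WT median 0.39), summed to 723 and 663 on the KO_PyMT arrays, against 418 and 426 on the KO_MCA arrays, and Cd2, a T cell adhesion receptor, measured 6.14 and 7.0 on the KO_PyMT arrays, against 4.47 and 4.15 on the KO_MCA arrays. These sums include Cd2 and Il7r, the latter named above for its small p, and no sum without them is given. The list's median was 0.05 and 0.30 for KO_PyMT replicates 1 and 2 taken singly, and 0.09 against the repeat array. Cd3g, Cd8a and Lck did not pass the detection filter. Neutrophil markers, 7 higher and 4 lower (median 0.14, WT median 0.00), summed to 659 and 361 on the KO_PyMT arrays, against 872 and 1105 on the KO_MCA arrays, with Mmp9 in that list. Without Mmp9, left out after its values were seen, the neutrophil sums were 618 and 331 on the KO_PyMT arrays, against 536 and 516 on the KO_MCA arrays, while the defining Ly6g, S100a8 and Cxcr2 were not above background on enough arrays to be tested. Fibroblast markers, 11 higher and 10 lower with 0 at an unadjusted p under 0.05 (median 0.03, WT median -0.44), summed to 1074 and 590 on the KO_PyMT arrays, against 730 and 804 on the KO_MCA arrays, and Col1a1 was below background on both KO_PyMT arrays but at 6.27 and 6.34 on the KO_MCA arrays. The part of other cells in the differences of Il7r, Mmp9, Ctsk and the lists was not tested.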

How the data were processed

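Gene expression was measured on 12 single-colour Illumina BeadChip arrays. The deposited intensity per probe is a linear mean bead signal without normalization, and the deposited p-value per probe tests it against background, per the file headers; the authors also deposited normalized intensity values by a method not given in the sources used here. Per the labels, RNA was amplified with µMACS SuperAmp, and cDNA was made with NuGEN Ovation Pico. Alternatives changed the background correction, scaling, detection filter, choice of probe, arrays fitted, array weights, replicate block and BeadChip. From the deposited intensity, neqc of limma 3.58.1 (R 4.3.3) corrected background with an offset of 16, quantile normalized all 12 arrays and took log2. Probes with p under 0.05 on at least 2 of 8 group arrays were kept, the brightest probe stood for its gene, and genes were placed on chromosomes by RefSeq GRCm38.p6. limma with 4 groups (residual df 4, prior df 2.75) gave two-sided p-values adjusted over 14103 genes by Benjamini-Hochberg. The fit was tested on simulated data in which a gene had the same spread in every group. Such data cannot show how the test behaves where the KO_PyMT replicates differ more than the KO_MCA replicates. A fold bound uses the lowest signal above background and, like every fold given, holds on the neqc scale. Named genes were the called genes that met the detection, probe and BeadChip criteria, filled by smallest p to 12 a direction, up to 4 members a list by smallest p and 6 for the difference between genotypes; Arg1, Chil3, Mrc1, H2-M3, Nfkb1 and Manba define their list or region. The comparison, lists and members were chosen with earlier results of these data known.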

Additional observations from a re-analysis of the deposited data

How the results depend on the processing

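The 8 genes called higher numbered 19 (15 higher, 4 lower) with normexp, 16 (13 and 3) without background correction and 16 (4 lower) with the authors' values. Median scaling gave 5 higher and 1 lower, and the mean of probes gave 26 (19 and 7). The count was 2 where genes had to be above background on all 4 KO arrays and 0 with the 4 KO arrays only. It was 4 with array weights and 1 with the BeadChip as a block. Without a detection filter 11 were called (7 higher, 4 lower), of which 4 were among the 8. Retnla, Adamtsl5, Olfr111 and Mmp12 were not called there. With the repeat array in place of KO_MCA replicate 1, 6 were called, all among the 8. R3hcc1l and Wdr83 were not (adjusted p = 0.0546 and 0.0538, limma). The replicate block gave 2 called genes, H2-M2 and Retnla; replicate numbers did not pair samples (correlations of deviations of -0.038 to 0.080). Leaving out 1 array gave 0 to 125 called genes, 0 to 86 higher and 0 to 39 lower: 125 without KO_PyMT replicate 1 and 59 without replicate 2, both with all 8 genes among them, 0 without either KO_MCA replicate and 4 without any 1 WT array, of which 4 (WT_PyMT) or 2 (WT_MCA) were among the 8. A lone array is assumed there to vary like the other groups. The count of genes that differ between KO and WT was 0, or 0 to 1 when 1 array was left out. The cause of these moves was not tested. Signs turned for S1pr2 (-0.73 to 0.10 leaving out an array), S1pr5 (0.027 with the mean of probes, 0.054 by BeadChip block and within the PyMT BeadChip, -0.36 to 0.14 leaving out an array), S1pr3 (-0.13 to 0.26 leaving out an array), the lipid phosphatase Plpp2 (-0.21 by BeadChip block and within the PyMT BeadChip), Rpl23 (-0.10) and thromboxane synthase Tbxas1 (0.23, mean of probes) and Dpp4 (0.25, above background on all 4 KO arrays). Medians of oxidative phosphorylation stayed between -0.75 and -0.33 over 23 alternatives, those of interferon-stimulated genes between -0.69 and -0.23, and those of CC chemokines between 0.20 and 0.62. With 2 arrays a group, and 1933 genes over 2-fold apart between the KO_PyMT arrays, small differences were not detectable.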

Other observations

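Both KO_PyMT arrays held genes that were high on 1 array and near background on the other; these were picked as the widest gaps between the replicates, after their values were seen. Tfap2c, a transcription factor of luminal and germ cells, measured 9.54 on KO_PyMT replicate 1 and 4.78 on replicate 2, against 4.09 and 4.08 on the KO_MCA arrays. Mast1, a microtubule-associated kinase gene, measured 8.37 on replicate 1 and 4.12 on replicate 2. The reverse held for Palb2, a partner of BRCA2, with 4.10 on replicate 1 and 8.13 on replicate 2, against 4.54 and 4.50 on the KO_MCA arrays, and for Jazf1, with 4.71 and 8.69. On the WT_PyMT arrays Tfap2c read 4.35 and 4.18 and Palb2 4.11 and 4.24.

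On arrays outside the comparison, labelled as mixed controls, H2-M2 read 8.42 in the PyMT array and 4.83 and 4.22 in the MCA arrays, and Retnla read 8.54 in the PyMT array, with both MCA arrays below background. Mmp12 did not follow, at 7.70 in the PyMT array and 8.51 and 6.95 in the MCA arrays. The labels do not say what was mixed.

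Bdh2, Slc9b2, Ctsk and Mmp9, lower in KO_PyMT by value, also differed between the WT_MCA replicates. On WT_MCA replicates 1 and 2, Ctsk read 4.17 and 6.83, Mmp9 5.09 and 7.97, Slc9b2 4.22 and 5.67 and Bdh2 4.68 and 5.67. On the WT_PyMT arrays all 4 lay between 4.07 and 4.89. In the KO_MCA arrays all 4 lay between 7.10 and 9.20.

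Immediate early genes, which respond to growth factors and also to tissue dissociation, were 14 higher and 7 lower of 21 measured, with a median of 0.08 that turned to -0.09 under median scaling and a WT median of -0.11. Egr1 measured 10.69 and 10.54 on the KO_PyMT arrays, against 9.70 and 9.57 on the KO_MCA arrays, and Egr3 measured 8.07 and 7.02 on the KO_PyMT arrays, against 5.77 and 5.79 on the KO_MCA arrays. Among eicosanoid genes, 9 higher and 6 lower with a median of 0.23 (WT median 0.08), Ltc4s, the leukotriene C4 synthase, measured 7.02 and 5.51 on the KO_PyMT arrays, against 4.25 and 4.89 on the KO_MCA arrays, and the prostaglandin D synthase Hpgds differed by 0.68 ± 0.17. Gstt1, a glutathione transferase, was below background on both KO_PyMT arrays, against 5.42 and 5.42 on the KO_MCA arrays (adjusted p = 0.0771, limma). Of 15 dendritic cell markers 5 were higher and 10 lower, with a median of -0.09 (WT median 0.37). Batf3 and Siglech, the plasmacytoid lectin, were higher by 1.51 ± 0.29 and 1.37 ± 0.37 and Dpp4 was at least 1.94-fold lower on the neqc scale, none of them past the threshold. With only probes above background on all 4 KO arrays, Dpp4 went the other way, by 0.25.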
